A study of Drosophila melanogaster with 6 samples.

Results

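The niche signal genes described here are 9 genes of Drosophila melanogaster: the secreted signals hh, wg, Wnt4, Wnt6 and dpp, the receptor gene ptc, and the transcription factor genes en, bab1 and bab2. They were chosen by name, and all 9 were found among the 13216 rows of genes and repeats measured in ovary RNA. The GCNA null flies carried a CRISPR knock-in/knock-out null allele of Gcna, a gene for a nuclear protein of germ cells, in a stock crossed to wBerlin for 10 generations (3 libraries). The wild type was the wBerlin stock itself (3 libraries). Females of both stocks were collected at 0 to 2 days, fed wet yeast for 24 hours and were 1 to 3 days old when their ovaries were taken for total RNA. The labels state neither how many females made up a library nor whether the null stock traces to a single founder. The comparison asks whether the RNA of these genes differed in level between ovaries without and with Gcna.

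The germarium, at the tip of each ovariole, holds the germline stem cells beside a somatic niche of terminal filament cells, cap cells and escort cells. In flies, Dpp from the niche keeps germline stem cells from differentiating, Hedgehog from the terminal filament and cap cells acts on escort cells and on the stem cells of the follicle epithelium, and Wnt proteins from cap and escort cells act on the escort and follicle lineages. Engrailed marks terminal filament and cap cells, and the paired bric-a-brac genes are needed to build terminal filaments. These cells make up a small part of an ovary, and whole-ovary RNA does not show which cells a read came from, so the label of a niche signal was not tested by these libraries. Fewer cells of a type and less RNA per cell likewise cannot be told apart in bulk RNA.

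The libraries held 38401723 to 55758180 counted reads, and 1 read was worth 0.789 to 1.15 normalized counts. GCNA null replicates 1 and 2 were nearly the same library by their reads: over 10258 rows, chi-square divided by its degrees of freedom came to 1.66, against 26.9 to 100.4 for the other pairs within a group. They were counted as 1 sample, so a mean ± SD is over 2 GCNA null and 3 wild type samples. The targeted gene, listed as CG14814, was lower in every GCNA null library (493, 428 and 520.4 normalized counts) than in any wild type library (20676, 18292 and 19581). Ovary identity was checked with 7 germline genes, vas, nos and osk among them, which took 0.299% to 0.330% of the reads of GCNA null libraries and 0.304% to 0.364% of those of wild type libraries. The labels do not tell whether each library had its own flies, and the p-values reflect only how far these libraries spread, which may be technical variation.

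The genes lie in 3 tight clusters and 3 single sites of the dm6 assembly (BDGP6), all annotated as protein-coding. The cluster of en is formed with inv, which is not one of the 9. Wnt4 (2L, 7255419 to 7277171, minus strand), wg (2L, 7307159 to 7316265, plus strand) and Wnt6 (2L, 7333714 to 7352542, plus strand) follow each other with gaps of 30.0 kb and 17.4 kb and no coding gene between them. The next Wnt gene of the cluster, Wnt10, was not analysed here. bab1 (3L, 1036369 to 1101089) and bab2 (3L, 1140429 to 1177276), both on the minus strand, are 39.3 kb apart with no coding gene between. en (2R, 11524006 to 11528210, minus strand) lies 14.3 kb from inv, its paralog. hh lies on 3R (23128169 to 23141906, minus strand), dpp on 2L (2428372 to 2459823, plus strand) and ptc on 2R (8649649 to 8665223, plus strand). No annotated gene shares exon bases with any of the 9. A non-coding gene on the opposite strand, CR44281, overlaps the ptc span and had 39.1, 18.9 and 14.1 normalized counts in GCNA null libraries and 16.8, 7.40 and 9.81 in wild type libraries. The libraries were strand-specific, but the strand setting of the counting is not stated, so reads of the overlapping genes may not have been told apart. CG31909 overlaps the Wnt4 span on the opposite strand and was not analysed here.

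All 9 RNAs lay below the median wild type level. In normalized counts per kb of exon, where the median wild type level of 12549 rows was 383, dpp stood highest with 87.2 ± 7.61 in GCNA null and 67.9 ± 12.8 in wild type ovaries. ptc followed with 42.7 ± 7.81 per kb in GCNA null and 33.5 ± 2.35 in wild type, and then bab2 with 31.1 ± 8.33 per kb in GCNA null and 19.3 ± 2.83 in wild type. Wnt4 reached 21.0 ± 12.4 per kb in GCNA null and 13.3 ± 3.42 in wild type, and its samples overlapped those of bab2 in both groups. hh, at 6.68 ± 2.85 per kb in GCNA null and 4.80 ± 1.42 in wild type ovaries, was below Wnt4 in every sample. Below hh the wild type order was Wnt6, bab1, wg and en, at 2.32 to 0.721 per kb, with each neighbour overlapping the next. In GCNA null the order was bab1, Wnt6, en and wg, at 5.28 to 0.609 per kb, where bab1 overlapped hh and Wnt6. The samples of en and wg did not overlap their neighbours, but their reads were too few for a firm order. GCNA null replicates 1 to 3 held 5, 6 and 6 reads of en and 1, 5 and 1 of wg. On this scale 38.9% of rows were lower than dpp in wild type, 34.8% were lower than ptc and 6.14% were lower than en.

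**Figure D1:**
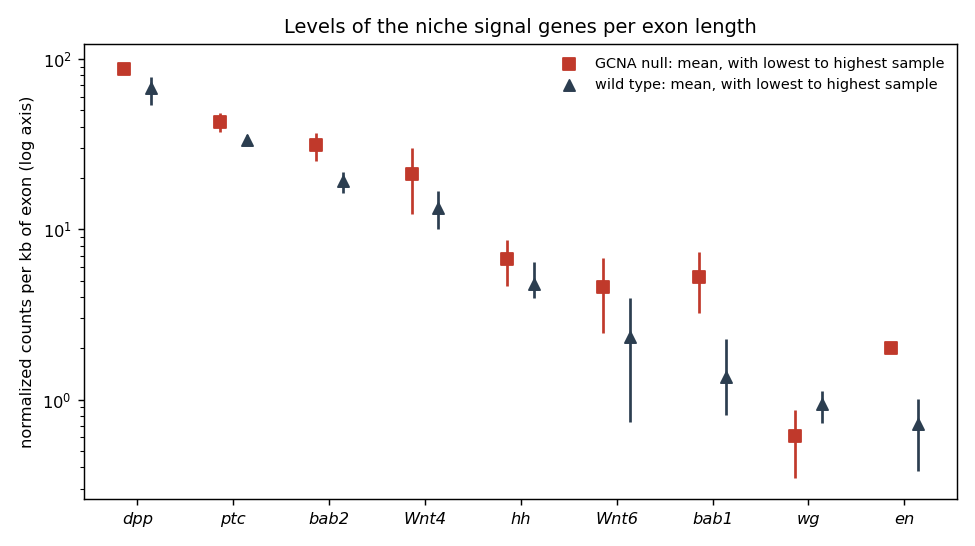
Normalized counts per kb of exon (log axis) for the 9 genes, ordered by the wild type mean; squares are GCNA null means, triangles wild type means, and lines span the lowest to the highest sample (2 GCNA null and 3 wild type samples). dpp, at 87.2 in GCNA null and 67.9 in wild type, is the highest of the 9, and wg and en are the lowest in wild type at 0.935 and 0.721.

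No member passed the test in either direction. The 7 members that reached 10 normalized counts in 3 or more libraries included 0 with a limma adjusted p under 0.05, and wg and en, below that filter, were not tested. Among all 10132 rows tested the test called 6.37%, 4.25% as higher and 2.11% as lower in GCNA null, so a count of 0 among 7 is near the background. Without adjustment, 2 members (bab1 and bab2) had p under 0.05, as did 23.1% of all rows. edgeR, DESeq2 and limma-voom on the reads recovered from the table also called 0 members (edgeR called 6.44% of all rows and DESeq2 12.8%). The differences of the 7 tested members were positive, with a median of 0.54 on the log2 scale. The median of all rows was -0.00045, and 49.9% of them were positive. In wild type, hh reached 10 normalized counts only in replicate 3, and Wnt6 and bab1 only in replicate 1. These genes passed the filter by way of GCNA null libraries, which favours positive differences among the tested members. Of the untested members, with no filter on low values, wg had a negative log2 difference of -0.47 and en a positive one of 1.18. Rows at the same mean level as the tested members (10.9 to 409 normalized counts, 3075 rows) had a median of 0.16, and 8.23% of them were called. With quantile normalization the 7 differences stayed positive but were smaller for each gene, at 0.09 for hh to 1.45 for bab1. The median of the rows at that mean level fell as well, to -0.098. For 4 of the 7 tested members (ptc, dpp, bab1 and bab2) the 3 GCNA null libraries were all above the 3 wild type libraries, an arrangement seen in 19.6% of all rows tested and in 26.1% of the rows at that mean level. The untested en had the same arrangement. For hh, Wnt4 and Wnt6, GCNA null replicates 1 and 2 were above every wild type library and replicate 3 was not, as in 11.3% of all rows tested.

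**Figure D2:**
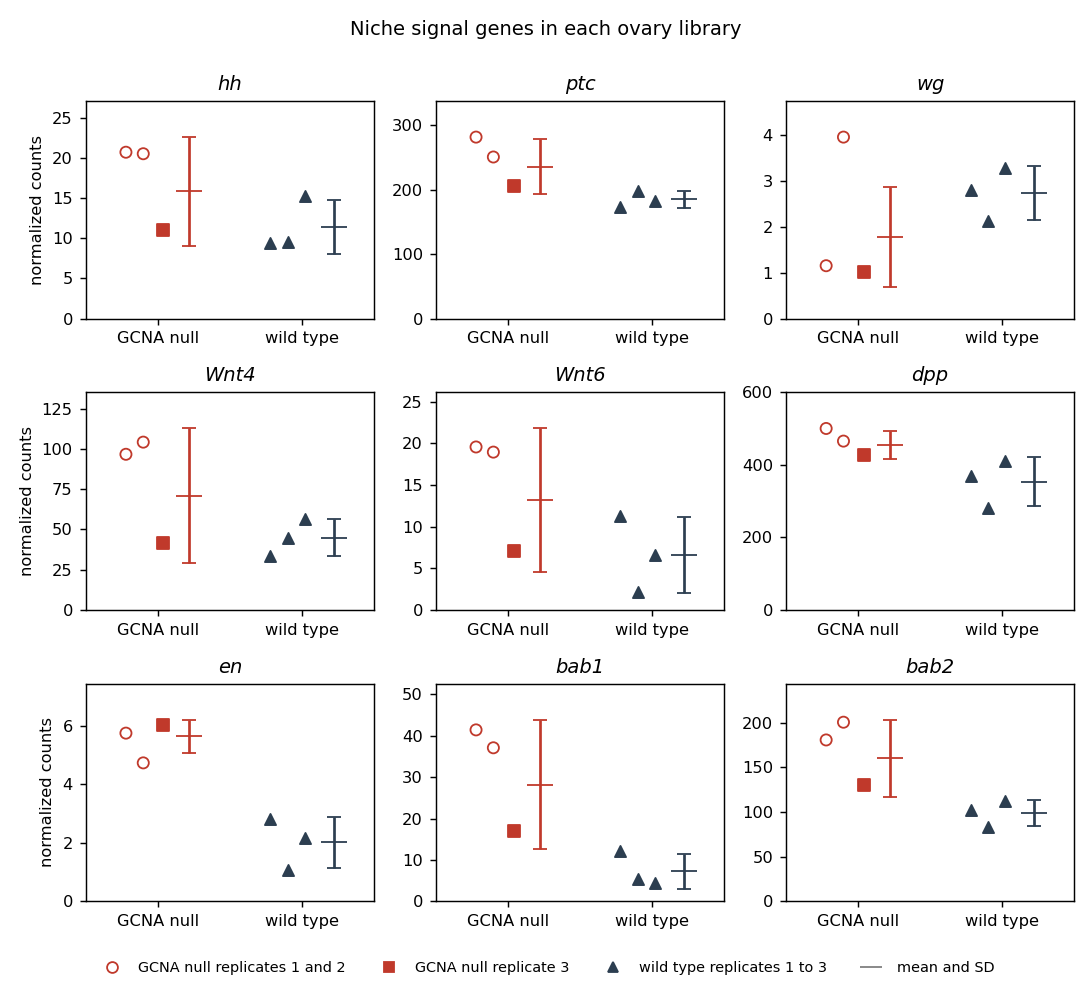
Normalized counts (each axis from 0) of the 9 genes in each library; open circles are GCNA null replicates 1 and 2, squares replicate 3, triangles the wild type replicates, and bars the mean and SD of 2 GCNA null samples (replicates 1 and 2 averaged) and 3 wild type samples. In hh, Wnt4 and Wnt6 the square lies among the triangles, while in ptc, dpp, en, bab1 and bab2 all GCNA null symbols lie above them.

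Among the ligands, hh encodes the single Hedgehog protein of the fly. Its normalized counts were 20.7, 20.5 and 11.1 in GCNA null and 9.35, 9.52 and 15.3 in wild type libraries. Replicates 1 and 2 of GCNA null were above all wild type libraries, replicate 3 was inside their range, and the groups overlapped. On the log2 scale the groups differed by 0.42 (SE 0.44, 95% interval -0.64 to 1.47, limma adjusted p = 0.62), an interval that holds both no change and a 2.78-fold higher level. Without GCNA null replicates 1 and 2 it was -0.0028. Its wild type SD of 3.36 was about the 3.42 that counting error alone gives at this depth.

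Wnt4 encodes a Wnt ligand that is also known for its part in building the fly ovary. It had 96.6, 104 and 41.3 normalized counts in GCNA null libraries and 33.7, 44.4 and 56.7 in wild type libraries. The mean of GCNA null replicates 1 and 2 was 2.23 times the wild type mean, whereas replicate 3 lay between the wild type libraries. The log2 difference was 0.54 (SE 0.43, 95% interval -0.48 to 1.57, limma adjusted p = 0.49). It was 1.17 without GCNA null replicate 3 (limma adjusted p = 0.14) and -0.09 without replicates 1 and 2 (limma adjusted p = 0.95), so its direction rested on those libraries.

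Its neighbour Wnt6, another Wnt ligand, had 19.6, 18.9 and 7.05 normalized counts in GCNA null libraries and 11.2, 2.11 and 6.54 in wild type libraries. The pattern over the GCNA null libraries was that of Wnt4, and wild type replicate 2 stood lowest with 2 reads. Its log2 difference was 0.95 (SE 0.72, 95% interval -0.79 to 2.69, limma adjusted p = 0.48). Wnt6 reached the filter through wild type replicate 1 and GCNA null replicates 1 and 2. The difference was 0.41 without wild type replicate 2 and 0.29 without GCNA null replicates 1 and 2.

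wg, the gene of Wingless, the best-known fly Wnt, was at the edge of detection. It had 1, 5 and 1 reads in GCNA null libraries and 3, 2 and 3 in wild type libraries. With no filter on low values its log2 difference was -0.47 (limma adjusted p = 0.65). The read ratio of GCNA null to wild type was 0.820 (exact 95% interval 0.253 to 2.59, counting error only), and no difference was detectable at this depth.

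dpp, the gene of the BMP ligand Decapentaplegic, was the most abundant of the 9 and is also known to be transcribed in anterior follicle cells of later egg chambers. It had 500.3, 465 and 427 normalized counts in GCNA null libraries and 370.3, 280.2 and 411 in wild type libraries. The groups did not overlap, but GCNA null replicate 3 and wild type replicate 3 lay close together. The log2 difference was 0.38 (SE 0.18, 95% interval -0.06 to 0.81, limma adjusted p = 0.27). The wild type SD of 66.9 was well above the 19.1 that counting error gives. The difference was 0.22 without wild type replicate 2, the lowest library.

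ptc encodes the Hedgehog receptor Patched and is itself switched on by Hedgehog signalling. It had 282, 251 and 205 normalized counts in GCNA null libraries and 173, 199 and 183 in wild type libraries. All GCNA null libraries were above all wild type libraries, replicate 3 by a small margin over wild type replicate 2. Its log2 difference was 0.34 (SE 0.17, 95% interval -0.07 to 0.74, limma adjusted p = 0.28). It was 0.15 without GCNA null replicates 1 and 2. The normalized count of hh was 7.35%, 8.18% and 5.39% of that of ptc in GCNA null libraries and 5.41%, 4.79% and 8.33% in wild type libraries, and these ranges overlapped.

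bab1, one of the paired BTB-domain transcription factor genes of the bric-a-brac locus, had the largest difference of the 7 tested members. It had 41.4, 37.1 and 17.1 normalized counts in GCNA null libraries and 12.2, 5.29 and 4.36 in wild type libraries. bab1 passed the filter by way of the GCNA null libraries, which favours a positive difference in its rank and in the p-values below. The groups did not overlap, and replicate 3 was the lowest of the GCNA null libraries, with 17 reads against 13 reads in wild type replicate 1. The GCNA null samples differed from wild type by 1.82 on the log2 scale (SE 0.57, 95% interval 0.45 to 3.20, limma adjusted p = 0.13). With all 6 libraries as separate samples, which counts replicates 1 and 2 as independent, bab1 passed (limma adjusted p = 0.031, and 0.034 with a replicate block), a setting in which 16.6% of all rows passed and 9.23% passed as higher in GCNA null. Over its alternatives the adjusted p of limma, edgeR and DESeq2 for bab1 ran from 0.031 to 0.52.

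bab2, the abundant member of the pair, had 181, 200.4 and 129.8 normalized counts in GCNA null libraries and 102, 83.5 and 112 in wild type libraries. The groups did not overlap. The log2 difference was 0.67 (SE 0.24, 95% interval 0.10 to 1.24, limma adjusted p = 0.16). It passed with 6 separate samples (limma adjusted p = 0.046) and not with the replicate block (limma adjusted p = 0.11). Without GCNA null replicates 1 and 2 the difference was 0.39 (limma adjusted p = 0.60). The level of bab1 was 22.9%, 18.5% and 13.2% of that of bab2 in GCNA null libraries and 11.9%, 6.33% and 3.88% in wild type libraries. This share was higher in each GCNA null library than in each wild type library. It rested on 13, 5 and 4 bab1 reads in wild type libraries and on 17 in GCNA null replicate 3. Counting error is therefore large, and a shift between the genes was not tested.

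en, the homeobox gene engrailed, was measured by a handful of reads. It had 5.75, 4.73 and 6.04 normalized counts in GCNA null libraries and 2.81, 1.06 and 2.18 in wild type libraries, or 17 reads in all in GCNA null and 6 in wild type. The groups did not overlap, and the GCNA null libraries held 5, 6 and 6 reads, too few to order them. The read ratio was 2.65 (exact 95% interval 0.999 to 8.22, counting error only). With no filter on low values its log2 difference was 1.18 (SE 0.49, limma adjusted p = 0.24). Its neighbour and paralog inv had 6.90, 8.68 and 9.06 normalized counts in GCNA null libraries and 2.81, 3.17 and 4.36 in wild type libraries, again without overlap (read ratio 2.44, exact 95% interval 1.14 to 5.66, counting error only; limma adjusted p = 0.22 with no filter).

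**Figure D3:**
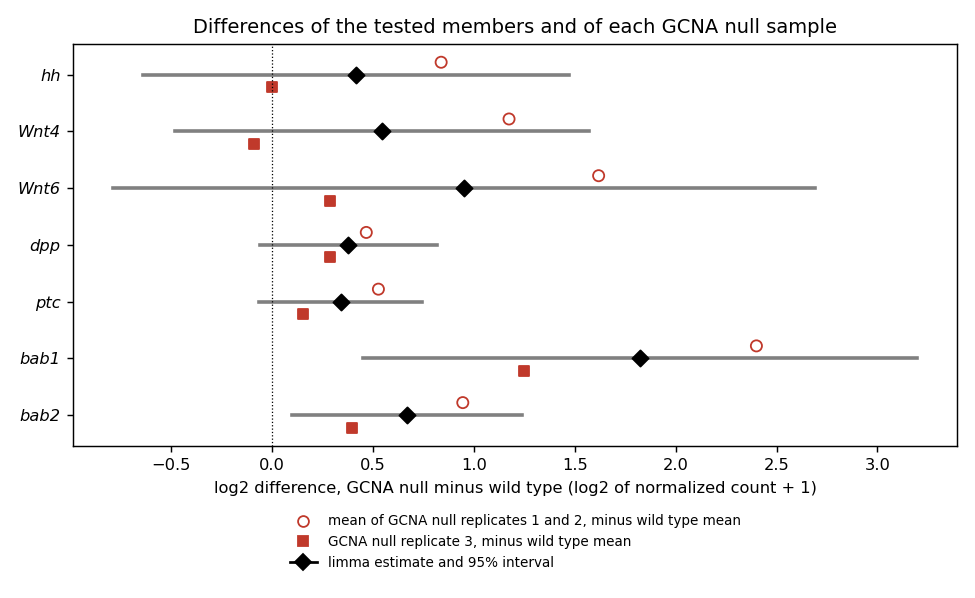
Log2 difference of GCNA null minus wild type (log2 of normalized count plus 1) for the 7 tested members; diamonds and lines are the limma estimate and its 95% interval, open circles the mean of GCNA null replicates 1 and 2 minus the wild type mean, and squares GCNA null replicate 3 minus the wild type mean. The circles lie above 0 for all 7 genes, while the squares of hh and Wnt4 lie at -0.0028 and -0.088.

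The libraries in which hh, Wnt4 and Wnt6 were high differed from the others in markers of other ovarian cells. The 14 late follicle cell genes (chorion, vitelline membrane and related eggshell genes) took 1.08%, 1.03% and 2.59% of reads in GCNA null replicates 1 to 3 and 2.47%, 2.75% and 2.46% in the wild type libraries. The 12 muscle sheath genes, such as Mhc and sls, summed to 63947, 62861 and 30083 normalized counts in GCNA null libraries and to 33884, 37369 and 57050.2 in wild type libraries. GCNA null replicates 1 and 2 and wild type replicate 3 were thus the libraries rich in muscle RNA, and they were also the 3 highest for hh and Wnt4. This was not so for Wnt6, where wild type replicate 1 (11.2) was above wild type replicate 3 (6.54). Nor was it so for bab1, which was lowest in wild type replicate 3. In ptc, dpp and bab2, GCNA null replicate 3 (205, 427 and 129.8) was above wild type replicate 3 (183, 411 and 112). wg and en, at a handful of reads, did not have that order either. For hh, Wnt6 and bab1 these orders rest on few reads. hh had 14 reads in wild type replicate 3 and 11 in GCNA null replicate 3. Wnt6 had 12 and 6 reads in wild type replicates 1 and 3, and bab1 had 5 and 4 in wild type replicates 2 and 3. limma and edgeR called 0 genes of either list, with 3 late follicle cell genes and 0 muscle sheath genes at p under 0.05 unadjusted. The 3 oviduct and spermatheca genes summed to 1454, 1396 and 1560.2 normalized counts in GCNA null libraries and to 721, 708 and 388 in wild type libraries, and 1 of them, Oamb, rose (log2 difference 1.31, limma adjusted p = 0.041). Of 8 hemocyte genes 2 rose (PPO1 and PPO2), with summed levels of 7205 to 9632 in GCNA null and 6218 to 8723 in wild type libraries. The fat body list (7 of 8 genes in the table) summed to 3838 to 10929 in GCNA null and 6097 to 9833 in wild type libraries with 1 gene called (Lsd-1, higher). Of the 7 fat body genes tested 3 had a positive log2 difference, and the median was -0.27. Among all rows tested 4.25% were called as higher in GCNA null. The testis list (6 of 10 in the table, 3 tested) summed to 831 to 1025 in GCNA null and 937 to 1053 in wild type libraries with 1 called (aly, higher). bol and mia, also tested, had log2 differences of -0.17 and -0.43. Most of the testis sum came from bol, at 658 to 806 in GCNA null and 759 to 886 in wild type libraries. The nervous system list summed to 495 to 698 in GCNA null and 525 to 572 in wild type libraries with 0 of 3 tested called. Mst87F, can and Syt1 stayed under 10 normalized counts in every library, and no listed gene with a row was at 0 throughout. The part of these cells in the values of the niche signal genes was not tested.

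**Figure D4:**
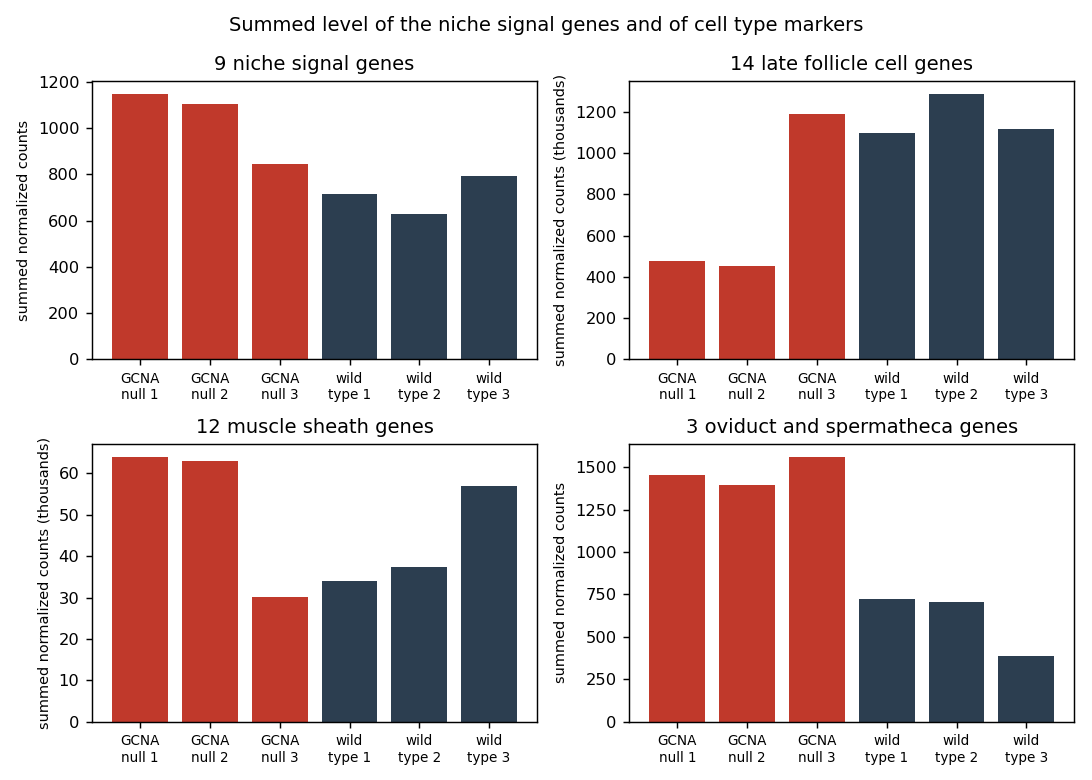
Summed normalized counts per library (bars from 0; red, GCNA null; dark blue, wild type) of the 9 niche signal genes and of 3 marker lists. The niche signal genes sum to 1148, 1106 and 846 in GCNA null and 717, 627 and 795 in wild type libraries; late follicle cell genes are low in GCNA null replicates 1 and 2 alone, and muscle sheath genes are high in those and in wild type replicate 3.

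Of 64 other genes tested in the 3 pathways, 1 passed the test (1.56%, against 6.37% of all rows). Of 21 Hedgehog pathway genes 0 rose and 0 fell with limma or edgeR (2 had p under 0.05 unadjusted), and their median log2 difference was -0.02. smo, the transducer that Patched holds in check, had 3902, 3962 and 3726 normalized counts in GCNA null libraries and 4267, 3863 and 3997 in wild type libraries. The smallest p belonged to ci, the transcription factor of the pathway, with 1709, 1769 and 1388 normalized counts in GCNA null and 1196, 1183 and 1108 in wild type libraries (log2 difference 0.42, SE 0.11, limma adjusted p = 0.080), and to dally, a glypican that helps morphogens spread (log2 difference 0.29, limma adjusted p = 0.12). Both had separate groups, and DESeq2 called both (DESeq2 adjusted p = 0.010 for ci and 0.042 for dally).

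Of 26 Wnt pathway genes tested 1 rose and 0 fell, where 4.25% of all rows rose, and the median log2 difference was 0.0053. Without adjustment 6 of them had p under 0.05, 4 of these as higher in GCNA null. The gene that rose was fz2, a Wnt receptor, with 1716, 1632 and 1275 normalized counts in GCNA null libraries and 901, 947 and 1031 in wild type libraries. It averaged 1475 ± 282 in GCNA null and 959.9 ± 65.7 in wild type ovaries (log2 difference 0.61, SE 0.13, limma adjusted p = 0.045), and all 3 GCNA null libraries were above all wild type libraries. The call was near the threshold, and over 19 alternatives the adjusted p ran from 0.00065 to 0.19. The limma adjusted p was 0.13, 0.12 and 0.099 without wild type replicate 1, 2 and 3, 0.068 with quantile normalization, and 0.19 without GCNA null replicates 1 and 2, so the call was lost in each of these. The log2 difference in the same settings was 0.56, 0.60 and 0.66, 0.59, and 0.41. nkd, a feedback inhibitor that Wnt signalling switches on, had 309, 294 and 175 normalized counts in GCNA null and 137, 119 and 129 in wild type libraries (log2 difference 0.84, SE 0.25, limma adjusted p = 0.11). Of other Wnt targets, fz3 had a log2 difference of -0.09 (SE 0.099). Notum, a Wnt deacylase, had 0.33 (SE 0.43, 95% interval -0.70 to 1.35), an interval that holds the value of nkd. Apc2 was lower in GCNA null, without overlap of the groups (log2 difference -0.23, SE 0.05, limma adjusted p = 0.061). DESeq2 called both Apc2 and nkd (DESeq2 adjusted p = 0.0042 for Apc2 and 0.028 for nkd). smo, nkd, Apc2, fz3 and Notum were chosen after their values were seen.

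Of 17 Dpp pathway genes tested 0 rose and 0 fell with limma or edgeR, 5 had p under 0.05 unadjusted, and the median log2 difference was -0.02. Dad, an inhibitory Smad that Dpp signalling switches on, had 1677, 1730.2 and 1446 normalized counts in GCNA null and 958, 1271 and 1017 in wild type libraries, without overlap (log2 difference 0.55, SE 0.14, limma adjusted p = 0.077; 0.045 without wild type replicate 2). Mad, the Smad that carries the signal, had 5908, 5936 and 5936 in GCNA null and 6775, 6704 and 6615 in wild type libraries (log2 difference -0.18, SE 0.05, limma adjusted p = 0.095). DESeq2 called both (DESeq2 adjusted p = 0.0076 for Dad and 0.0060 for Mad). The receptor genes tkv and put had log2 differences of 0.10 and -0.14, and were chosen after their values were seen. With 6 separate samples 9 of the 64 genes of the 3 pathways passed, or 14.1% where 16.6% of all rows passed: ci, dally, fz2, nkd, otk and Dad as higher, and Wnt5, Apc2 and Mad as lower. DESeq2 called 7 of the 64, or 10.9% where it called 12.8% of all rows.

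Of 11 other niche and early follicle cell genes tested 0 were called by limma or edgeR (1 had p under 0.05 unadjusted), and 9 had a positive log2 difference (median 0.24, 0.12 with quantile normalization). Fas3, an adhesion protein of early follicle cells, had 2710, 2721 and 3045 normalized counts in GCNA null and 2362, 2168 and 1819 in wild type libraries (log2 difference 0.45, SE 0.12, limma adjusted p = 0.083), and it passed with 6 separate samples (limma adjusted p = 0.030) and with DESeq2 (DESeq2 adjusted p = 0.010). LamC, a lamin abundant in cap and terminal filament cells, had 2359, 2305 and 3057 in GCNA null and 2195, 2199 and 2254 in wild type libraries (log2 difference 0.27, SE 0.11, limma adjusted p = 0.22). In both of these genes GCNA null replicate 3 was the highest library. ct, which encodes a homeodomain protein, passed without GCNA null replicate 3 (limma adjusted p = 0.042).

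**Figure D5:**
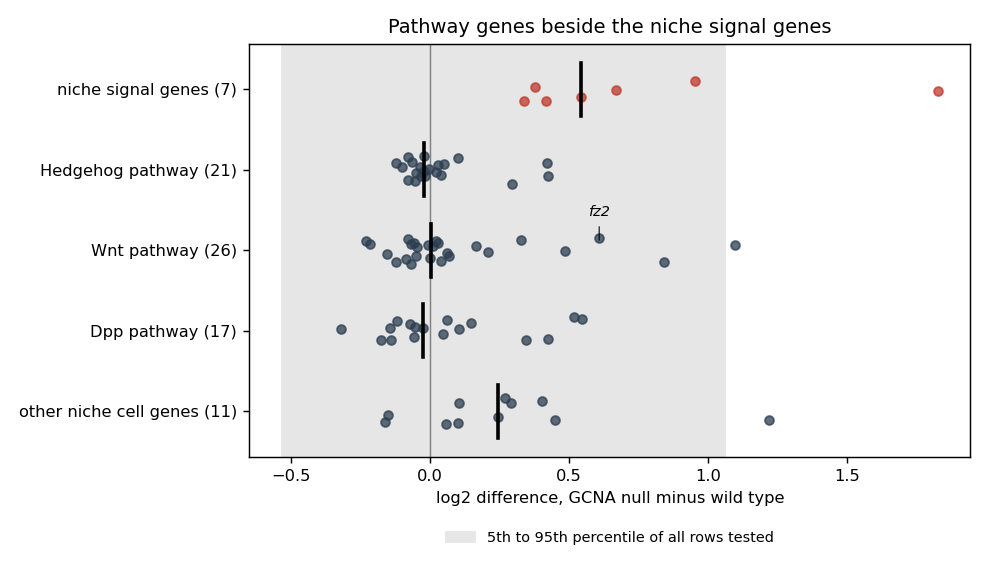
Log2 difference of GCNA null minus wild type for the 7 tested niche signal genes and for the tested genes of 4 lists (points, jittered vertically; number of genes in brackets; black bars, medians); the grey band spans the 5th to the 95th percentile of all rows tested, -0.53 to 1.06. The tested niche signal genes all lie above 0 with a median of 0.54. Of these, hh, Wnt6 and bab1 passed the filter by way of GCNA null libraries, for Wnt6 together with wild type replicate 1. The 3 pathway lists centre near 0, and fz2 is the one pathway gene that passed the test.

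The rows closest in profile to each tested member were found by the root mean square (RMS) difference of log2 values over the 5 samples. The search covered rows averaging 50 normalized counts or more. For bab1 they were CG15279 (RMS 0.18) and Ilp8, a relaxin-like hormone gene (RMS 0.29), and for bab2 htl, an FGF receptor gene (RMS 0.068), and the repeat STALKER4_I-int:Gypsy:LTR (RMS 0.083). For Wnt4 they were Pxn, which encodes peroxidasin of the extracellular matrix (RMS 0.098), and dp, a gene for a large matrix protein (RMS 0.10), and for hh CG8888 (RMS 0.053) and CG15431 (RMS 0.063). For ptc they were Tsp42Ee (RMS 0.038) and sick (RMS 0.043), for dpp CG31538 (RMS 0.057) and CG31642 (RMS 0.080), and for Wnt6 CG45002 (RMS 0.34) and RIC-3 (RMS 0.39), the poorest match. With 8493 or 8494 rows searched and 5 samples, such likeness is a description of these libraries.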

How the data were processed

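Total ovary RNA, small species down to 18 nt included, was freed of ribosomal RNA and made into strand-specific libraries, run on an Illumina HiSeq 2500, per the labels' protocols. The submitters' processing notes name the dm6 assembly, STAR 2.5, CASAVA 1.8.2 and DESeq2. The read counter, its strand setting and the annotation are not stated there. As deposited, the values are signal of the kind of reads per row divided by 1 size factor per library, by the authors. Every value was within 1e-06 of a whole multiple of the library's smallest value, so whole reads were recovered for 100% of values. In GCNA null replicate 3 that step (1.01) is so near 1 that whole reads are harder to tell from rounded values than in the other libraries, and reads recovered from it enter only the alternatives that use reads and the read counts given.

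Differences (GCNA null minus wild type) were tested with limma 3.58.1 in R 4.3.3, with a trended prior, on log2(normalized count + 1). Rows needed 10 or more normalized counts in 3 or more of the 6 libraries. P-values were two-sided and Benjamini-Hochberg adjusted over all 10132 rows. This scale understates the change of scarce RNAs. GCNA null replicates 1 and 2 were averaged into 1 sample. Alternatives were 6 separate samples, a replicate block, other pseudocounts and filters, quantile normalization, TMM, a robust prior, edgeR 4.0.16, DESeq2 1.42.0 and limma-voom on recovered reads, and each library left out. The fit was tested on simulated data. Exon lengths and positions came from Ensembl release 115 (BDGP6), matched for 12856 rows. Outside the replicate block, samples were not treated as paired by replicate number. The members and lists were chosen with earlier results of these data known. Named were all members, CG14814, inv, the called genes of each pathway list or else the 2 with the smallest p, and the 2 rows nearest to each member; marker genes named are examples of their lists, and other pathway genes were picked after their values were seen. A search of promoter sequences was planned and not run. Floors and intervals on reads cover counting error only.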

Additional observations from a re-analysis of the deposited data

How the results depend on the processing

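The number of rows called (645) was 1684 with 6 separate samples, 1117 with these and a replicate block, and 1297 with DESeq2 on recovered reads. It was 146 to 639 when libraries were left out, with 355, 368 and 289 without wild type replicates 2, 1 and 3 and 146 without GCNA null replicates 1 and 2, settings with fewer samples. The number of members called (0) was 2 with 6 separate samples and 1 with the replicate block, and stayed at 0 in every setting that left a library out. The pathway genes called (1) were 9 with 6 separate samples, 4 with the replicate block, 7 with DESeq2 and 0 with quantile normalization, and 0 to 3 when libraries were left out (Dad in place of fz2 without wild type replicate 2). The cause was not tested. Of 130 values of single members under an alternative, 125 kept their direction and their side of the threshold, 3 passed it (bab1 with 6 separate samples and with the block, bab2 with 6 separate samples) and 2 turned round without GCNA null replicates 1 and 2: hh ran from -0.0028 to 0.84 and Wnt4 from -0.088 to 1.17 over the left-out libraries, highest without GCNA null replicate 3. Settings with 1 GCNA null sample assume that it varies like the wild type. Same-numbered libraries did not deviate together (correlations -0.18, 0.073 and -0.094 for replicates 1, 2 and 3), which gave the block no basis. GCNA null replicates 1 and 2 deviated alike, so this check cannot exclude a pairing. Depth limits the precision of hh, Wnt6, wg, en and bab1, at 6 to 100 reads per group, and for Wnt6 and bab1 the wild type SD (4.55 and 4.26) was also above that of counting (2.61 and 2.73).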
